A study of Callithrix jacchus with 3 samples.

Results

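miR-10a-5p, miR-10b-5p, miR-99a-5p, miR-100-5p and miR-125b-5p were followed in small RNA of the testis of Callithrix jacchus, the common marmoset, a small monkey of South America. They were 5 of 41 miRNAs searched. A read was assigned to one of them when its first 18 nt equalled those of the mature miRNA, which gave 69887 of 14138166 reads in total small RNA and 72 of 110209593 reads recovered with MARWI, a PIWI protein of the marmoset testis. Total small RNA came from a wild-type testis aged 41 months and was purified by size on a gel. RNA immunoprecipitated with MARWI (MARWI-IP) and testis RNA-seq came from wild-type testes aged 41 and 51 months, labelled as 2 replicates but deposited as 1 column each. No value has a replicate error. Intervals are exact (Clopper-Pearson) 95% intervals, and since the reads carry no molecular identifiers they cover counting error only. The lengths listed run from 20 to 51 nt in total small RNA and from 24 to 33 nt after immunoprecipitation.

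MicroRNAs are cut from hairpin precursors by Drosha and then Dicer, loaded into Argonaute proteins, and recognise messenger RNAs mainly through their seed, bases 2 to 8. The miR-10 genes lie in the HOX clusters, beside HOXB4 and HOXD4. miR-99 and miR-100 belong to the same ancient family with a shifted seed, and in mammals miR-99a and miR-100 are each transcribed together with a let-7 gene and a copy of miR-125b, a relative of the worm developmental regulator lin-4. Another cluster of this kind carries miR-99b, let-7e and miR-125a.

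The commonest total small RNA read of each is shown because the 5 miRNAs fall into only 3 seeds and the paralogues differ by 1 base. Sequences are 5′ to 3′ as the deposited reads give them, with T for U and the seed in capitals.
miR-99a-5p: aACCCGTAgatccgatcttgt
miR-100-5p: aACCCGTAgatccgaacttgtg
miR-10b-5p: tACCCTGTagaaccgaatttgt
miR-10a-5p: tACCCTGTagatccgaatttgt
miR-125b-5p: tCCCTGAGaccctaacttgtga

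Counted from base 1 at the 5′ end, miR-99a and miR-100 differ by T16A and miR-10a and miR-10b by T12A. No other base of their first 18 differed. The miR-10 and miR-100 sequences are offset by 1 base: with base 6 of miR-10a removed, 2 mismatches with miR-100 were left over 19 nt, against 11 mismatches over 18 nt without the removal. miR-125b differed from the other 4 at 12 or 13 of 18 bases. It differed from miR-125a, which has the same seed, at 5, all between bases 14 and 18.

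Near matches to these sequences were rare. In total small RNA, 1 read lay 1 mismatch away from a member within the first 18 nt, beside 69887 exact reads. Reads with the first 18 nt of another searched miRNA were not counted as mismatches, but those of related miRNAs not searched would be. The counts are therefore not error rates. Such low counts were not particular to the 5: miR-21-5p had 0 and miR-34c-5p 3, while let-7a-5p had 3661 and miR-26a-5p 2290. The miR-99a reads that start at base 1 were 4 distinct sequences. Among reads of 20 to 23 nt, the miR-99/100 seed occurred in 51784 reads, and miR-99a, miR-100 and miR-99b accounted for every one of them. miR-10a and miR-10b were 99.6% of 10447 reads of this length with their seed, and miR-125a and miR-125b 99.9% of 18052. Whether the submitters kept only reads that match the genome is not stated. Forms with bases added after transcription, which would then be missing, were therefore not assessed here.

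The 5 miRNAs were abundant and unequal. miR-99a-5p had 28119 reads, or 1989 reads per 1000000 reads of the library (RPM; 1966 to 2012), and was the third of the 41 miRNAs after miR-34c-5p and miR-21-5p. miR-100-5p had 18029 reads, 1275 RPM (1257 to 1294). miR-125b-5p had 12708 reads, 899 RPM (883 to 915). miR-99a, miR-100 and miR-125b thus led the miR-10 genes: miR-10b-5p had 8888 reads, 629 RPM (616 to 642), and miR-10a-5p had 2143, 152 RPM (145 to 158).

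Each step of this order exceeded counting error. miR-99a was 1.56-fold higher than miR-100 (1.53 to 1.59), miR-100 1.42-fold higher than miR-125b (1.39 to 1.45), miR-125b 1.43-fold higher than miR-10b (1.39 to 1.47) and miR-10b 4.15-fold higher than miR-10a (3.96 to 4.35). The spread between animals is unknown. At 20 nt, the shortest length listed, lay 20.3% of miR-100 reads and 7.27% of miR-99a reads. The part of unlisted shorter reads in these ratios was not tested. miR-99a and miR-100 together made up 66.0% of the members' reads, miR-125b 18.2% and the miR-10 pair 15.8%. Summed, the 5 had 4943 RPM (4907 to 4980), below the 6019.6 RPM of miR-34c-5p alone, a miRNA of meiotic and later germ cells. They were 5.96% of all reads of 20 to 23 nt, where most miRNA reads lie. In a whole testis, fewer cells of a type and less RNA per cell cannot be told apart.

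In the order of reads, miR-99a stood between miR-21-5p and miR-449a, miR-100 between miR-191-5p and miR-20a-5p, and miR-125b between miR-103a-3p and miR-22-3p. miR-10b stood between let-7f-5p and miR-30a-5p, and miR-10a between miR-24-3p and miR-145-5p.

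The miRNAs made from the same transcripts were not present in equal numbers. miR-125b, which both the miR-99a and the miR-100 loci encode in mammals, had 0.275 times the reads of miR-99a and miR-100 together (0.270 to 0.281). let-7c-5p, the let-7 beside miR-99a, had 2369 reads, 11.9-fold fewer than miR-99a (11.4 to 12.4). let-7a-5p, encoded beside miR-100 and elsewhere, had 9846 reads, 1.83-fold fewer than miR-100 (1.79 to 1.88). let-7a and let-7c share their first 18 nt and were told apart by the first 20. In both clusters, then, the let-7 miRNA had fewer reads than its miR-99 or miR-100 neighbour.

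The related miR-99b cluster was lower for its miR-99 and miR-125 members. miR-99b-5p had 5648 reads, and miR-99a and miR-100 together had 8.17-fold more (7.95 to 8.40). miR-125a-5p had 6492 reads, so that miR-125b exceeded it 1.96-fold (1.90 to 2.02). let-7e-5p had 556 reads, 10.2-fold fewer than miR-99b (9.31 to 11.1). Within this cluster miR-125a was 1.15-fold above miR-99b (1.11 to 1.19), the opposite order to miR-125b and miR-99a, where miR-99a was 2.21-fold above miR-125b (2.17 to 2.26). Ligation and amplification can favour some small RNA sequences over others, and their part in these ratios was not tested.

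**Figure D1:**
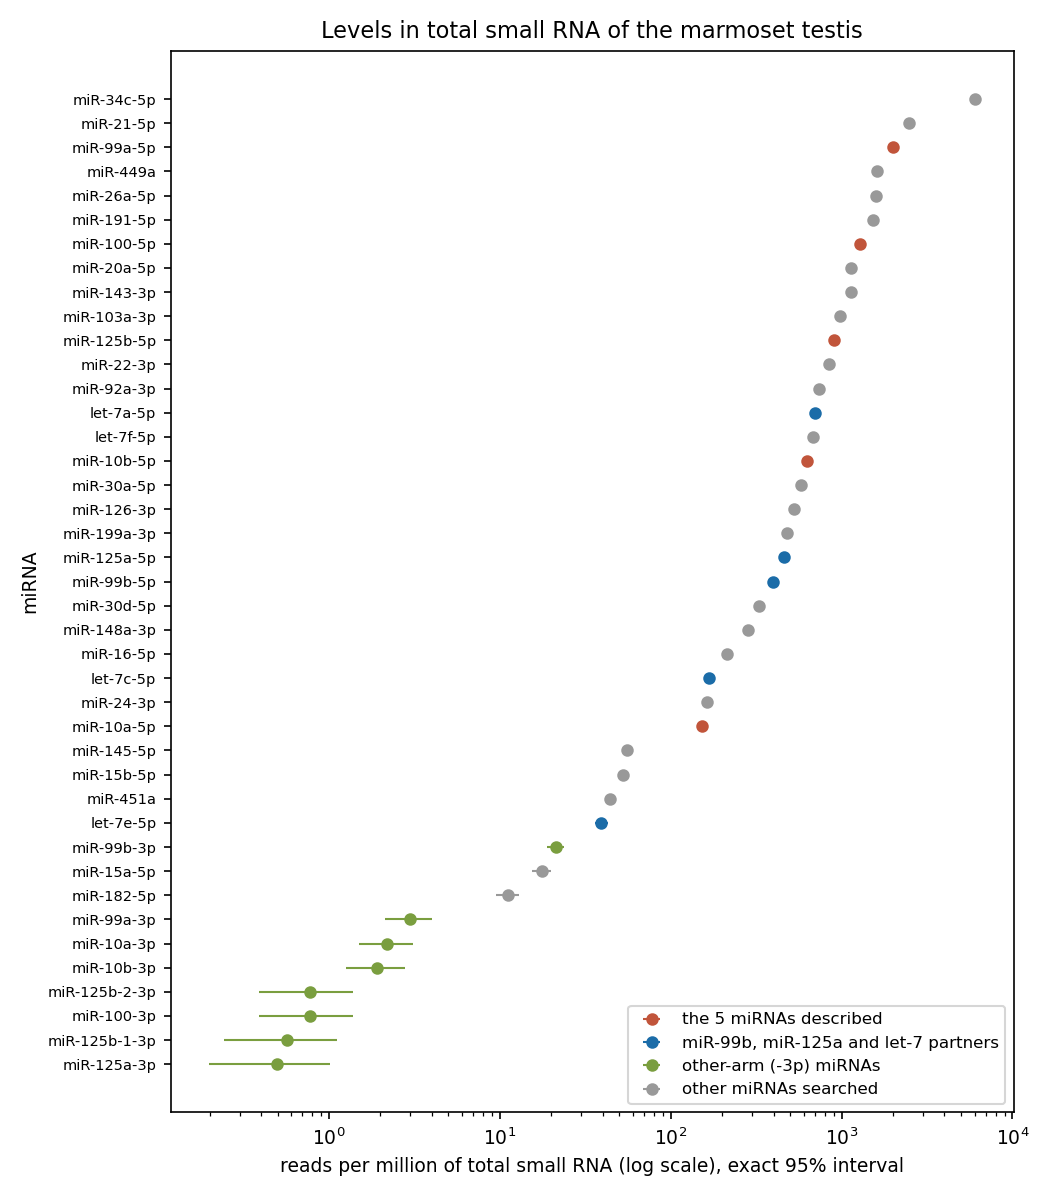
Level in total small RNA (RPM, log scale) for the 41 miRNAs searched, in order, each with its exact 95% counting interval. The 5 miRNAs described run from 1989 for miR-99a-5p to 152 for miR-10a-5p, and their -3p arms lie under 3 RPM.

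The other arm of each hairpin was nearly absent. miR-99a-3p had 42 reads, miR-10a-3p 31, miR-10b-3p 27 and miR-100-3p 11. The -3p miRNAs of the separate miR-125b genes had 8 (miR-125b-1-3p) and 11 reads (miR-125b-2-3p), with wide intervals: 0.566 RPM (0.244 to 1.11) and 0.778 RPM (0.388 to 1.39). The 2 genes could not be ordered at this depth.

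The 5p arm exceeded the 3p arm by 1639-fold for miR-100 (916 to 3284), 669.5-fold for miR-99a (495 to 929) and 669-fold for miR-125b (428 to 1111). The ratio was 329 for miR-10b (226 to 500) and lowest of the 5 for miR-10a, at 69.1 (48.6 to 102). miR-99b had a still lower ratio of 18.8 (16.7 to 21.1), with 301 reads of miR-99b-3p. These arms were found by their seeds, and for those with under 20 reads the identification rests on few reads.

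The paralogues differed in where they ended. The mature forms listed for the human miRNAs, taken here as the reference, end at base 22 in miR-99a, miR-100 and miR-125b and at base 23 in both miR-10 miRNAs. miR-99a mostly ended 1 base earlier: 60.7% of its reads were 21 nt (60.1% to 61.3%), 31.3% were 22 nt and 7.27% were 20 nt. miR-100, which shares its last bases, had 27.5% at 21 nt, 51.7% at 22 nt (51.0% to 52.5%) and 20.3% at 20 nt. The share of 21-nt reads was thus 33.2 percentage points higher in miR-99a. The share of 20-nt reads was lower in miR-99a. Lengths under 20 nt were not listed, so shorter forms of either were not assessed.

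Both miR-10 miRNAs were commonest at 22 nt, with 63.5% of miR-10b reads (62.5% to 64.5%) and 47.6% of miR-10a reads (45.5% to 49.7%). They had the same share at the listed end of 23 nt, 16.5% (15.7% to 17.3%) in miR-10b and 16.8% (15.2% to 18.5%) in miR-10a, within counting error. They parted at 24 nt, which held 21.5% of miR-10a (19.7% to 23.3%) and 1.73% of miR-10b (1.47% to 2.03%). The 24-nt forms extend the commonest reads by the same bases, and are shown because the paralogues parted there:
miR-10a-5p, 24 nt: tACCCTGTagatccgaatttgtgt
miR-10b-5p, 24 nt: tACCCTGTagaaccgaatttgtgt

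Among reads with the listed start, miR-10a therefore had a longer form that its paralogue nearly lacked. This form had 460 reads of 24 nt against 154, although miR-10b had 4.15-fold more reads in all. The end at base 24 was not itself rare in miR-10b. Of the reads that start at base 2, examined below, 379 of miR-10b ended there (23.1%), beside 320 of miR-10a (31.7%). miR-125b was commonest at its listed 22 nt, with 57.6% (56.7% to 58.5%), and 31.9% of its reads were 21 nt.

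Of all member reads, 39.0% ended at the listed base, 59.5% before it and 1.51% after it. The commonest length was the listed one for 2 of the 5 miRNAs and 1 base shorter for the other three. Among the 28 other miRNAs, the cluster partners included and the -3p arms left out, it was the listed length in 19, shorter in 5 and longer in 4. The commonest length held 47.6% to 63.5% of a member's reads, beside a median of 61.5% for those 28.

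**Figure D2:**
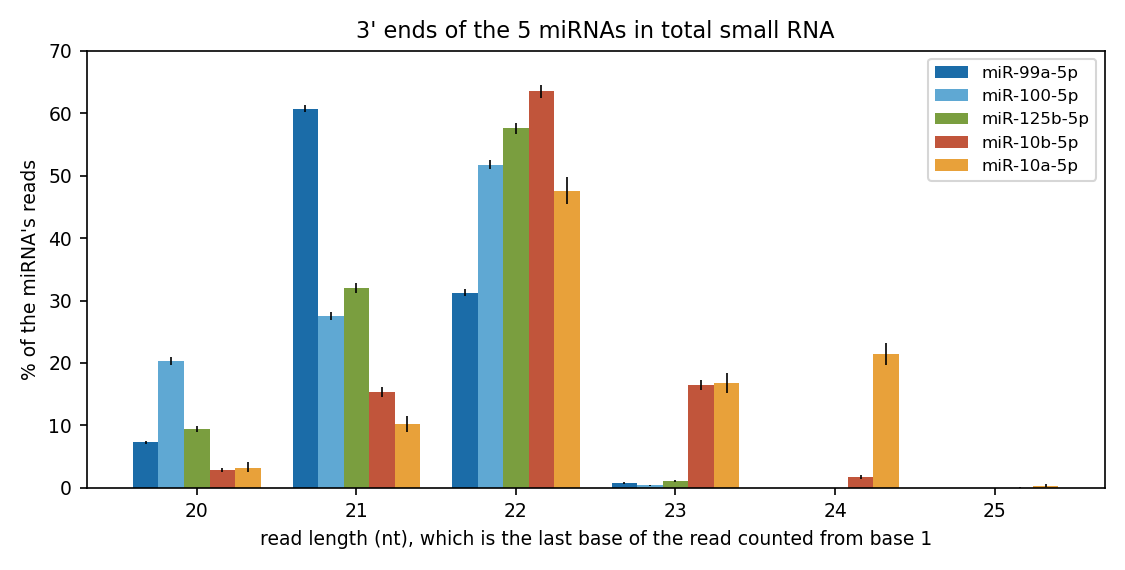
Share of each miRNA's total small RNA reads by length, which for reads starting at base 1 is also the last base. Bars carry exact 95% counting intervals. miR-99a peaks at 21 nt, the other 4 peak at 22 nt, and miR-10a alone has a second peak at 24 nt, of 21.5%.

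Over 20 to 26 nt, the length profiles most like that of the 5 miRNAs summed were those of miR-449a, with an overlap of 0.912 (1 is identity), miR-99b-5p with 0.828 and miR-126-3p with 0.788. Of the members themselves, miR-125b overlapped the sum by 0.883 and miR-10a by 0.635. This is a description of 1 library.

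Past base 22, the reads of each miRNA followed a single sequence, except those of miR-125b. Its 23-nt reads ended in T in 89 reads and in G in 47, and all 17 longer reads of MARWI-IP, as well as the one of total small RNA, carried the T. The forms are shown because miR-125b comes from separate genes in mammals.
miR-125b-5p, 23 nt, 89 reads: tCCCTGAGaccctaacttgtgat
miR-125b-5p, 23 nt, 47 reads: tCCCTGAGaccctaacttgtgag
miR-125b-5p, 30 nt, 10 reads in MARWI-IP: tCCCTGAGaccctaacttgtgatgtttacc

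No precursor sequence was at hand, so neither form was assigned to a gene.

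Start sites were examined next, outside the rule that defined the members and after their reads had been seen, because a shift of 1 base at the 5′ end replaces the seed. Reads ending at base 21 or later were counted, so that starts up to base 2 were equally visible. A read from base 3 to base 21 falls under the 20 nt listed, so that start is undercounted. miR-10a and miR-10b often started at base 2. These reads were 1011 of 3104 for miR-10a, 32.6% (30.9% to 34.3%), and 1639 of 10273 for miR-10b, 15.95% (15.3% to 16.7%). They were the highest shares among 33 miRNAs, the members and the 28 others. The -3p arms were not examined for starts. The 28 that are not members had a median of 0.0510% and a highest value of 9.06%, in miR-126-3p. The commonest shifted reads, with the new bases 2 to 8 in capitals, were
miR-10a-5p from base 2: aCCCTGTAgatccgaatttgt
miR-10b-5p from base 2: aCCCTGTAgaaccgaatttgtg

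miR-10a had 385 of the first and miR-10b 694 of the second. The other 3 members kept their start more closely. miR-100 started at base 2 in 2.21% of reads (1.97% to 2.46%), miR-125b in 0.277% (0.189% to 0.390%) and miR-99a in 0.0866% (0.0549% to 0.130%). miR-99a instead started 1 base earlier in 450 reads, 1.70% (1.54% to 1.86%), a start that no read of miR-100, miR-125b or miR-10b had. The less common starts of miR-99a and miR-100 thus lay on opposite sides of base 1.

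**Figure D3:**
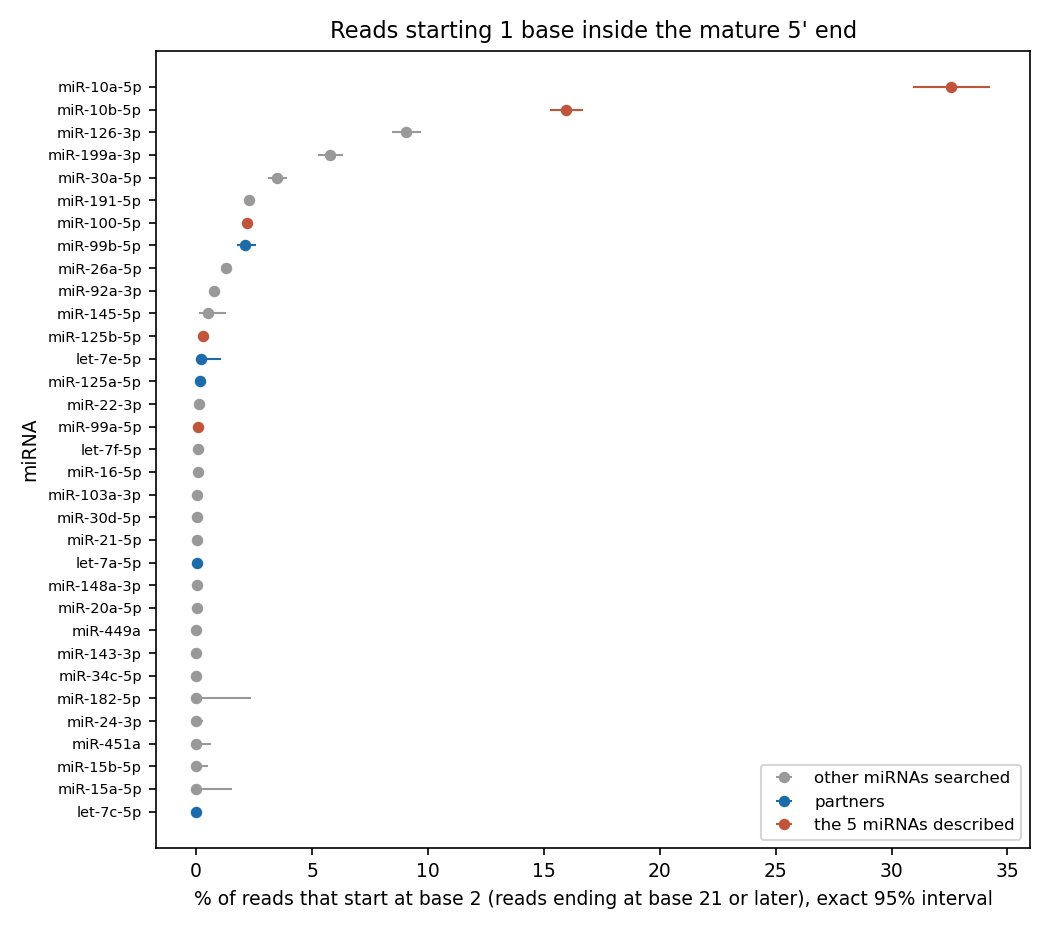
Share of reads starting at base 2, of all reads that start from 1 base before to base 3 and end at base 21 or later, for 33 miRNAs with exact 95% counting intervals. miR-10a-5p (32.6%) and miR-10b-5p (15.95%) stand above the rest, of which miR-126-3p is the highest at 9.06%.

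The last base differed between starts in some of the miRNAs. In miR-10b, 65.8% of the reads from base 2 reached base 23 or beyond (63.5% to 68.1%), against 18.8% of those from base 1 (17.97% to 19.6%). The commonest read of either start was therefore 22 nt long. In miR-10a the shift was smaller, with 54.0% (50.9% to 57.1%) against 40.3% (38.2% to 42.5%). In miR-99a, reads starting 1 base early ended at base 21 in 93.1%, against 65.5% of those from base 1, which again made 22 nt the commonest length of the early-starting form. miR-100 reads from base 2 reached base 23 in 5.25% (3.09% to 8.27%), against 0.536% from base 1 (0.423% to 0.669%). The few reads from base 2 of miR-125b (32) and miR-99a (23) did not reach base 23. The commonest end stayed at base 22 for both starts in miR-10a, miR-100 and miR-125b.

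**Figure D4:**
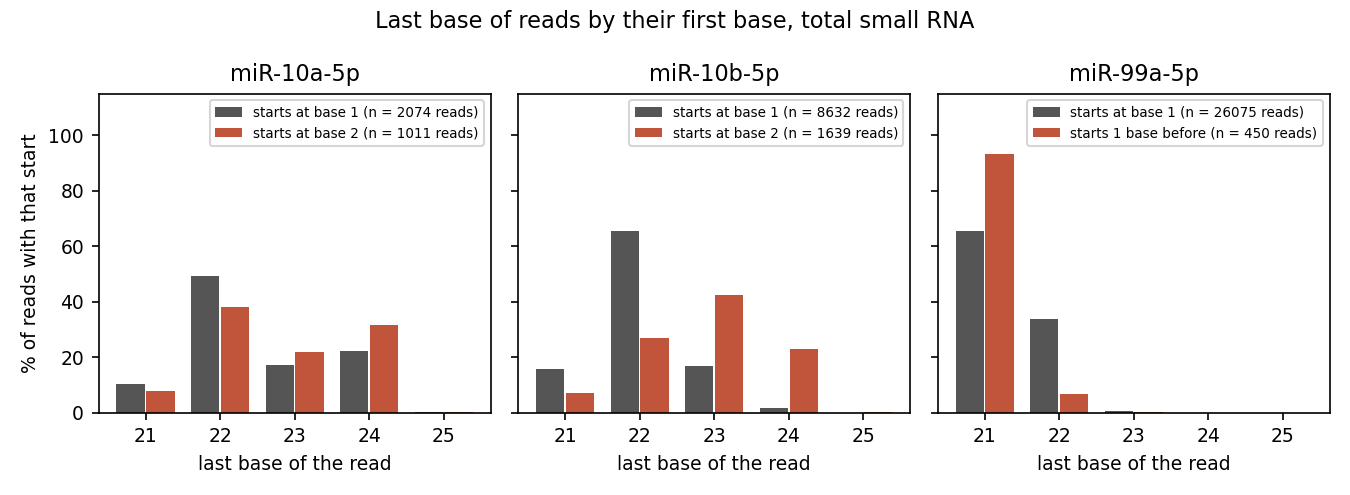
Last base of miR-10a-5p, miR-10b-5p and miR-99a-5p reads, as a share of the reads with each start, in total small RNA. miR-10b reads from base 2 peak at base 23 where those from base 1 peak at base 22, and early-starting miR-99a reads end at base 21 in 93.1%.

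RNA recovered with MARWI was then compared over 24 to 33 nt, the lengths both tables hold. PIWI proteins of the testis bind piRNAs, which are longer than miRNAs, so this range leaves out most reads of the 5 miRNAs: only 632 of their 69887 total small RNA reads were that long. Of these, 476 were miR-10a, 155 miR-10b and 1 miR-125b, and miR-99a and miR-100 had none. In MARWI-IP the counts were 46 for miR-10a, 7 for miR-10b, 17 for miR-125b, 2 for miR-100 and 0 for miR-99a.

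Relative to all reads of 24 to 33 nt, the summed share in MARWI-IP was 0.0132 times that in total small RNA (0.0102 to 0.0169), 75.6-fold lower. miR-10a was 89.1-fold lower, with a ratio of 0.0112 (0.00810 to 0.0152), and miR-10b 191-fold lower, with 0.00524 (0.00207 to 0.0111). Of the 15 miRNAs that reached 100 total reads at these lengths, 13 had a ratio under 0.1 (86.7%), miR-10a and miR-10b among them. The 15 were chosen by their total reads, which divide the ratio, and this choice favours low ratios. Among miRNAs with fewer total reads the ratio lay on either side of 0.1, for instance 0.306 in let-7a-5p, 0.175 in miR-26a-5p and 0.00484 in miR-92a-3p. Each of these was lower in MARWI-IP. For miR-125b, with 1 total read, the ratio of 1.97 spanned 0.309 to 82.5 and shows no direction. For miR-99a and miR-100, with at most 2 reads in either library, no ratio was formed. A count of 0 allows up to 3 reads.

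The ratio was lowest at 24 nt. There the members had 614 reads in total small RNA, and MARWI-IP had 11, a ratio of 0.00284 (0.00141 to 0.00512). At 25 nt there were 7 in each, a ratio of 0.143 (0.0427 to 0.477). At 26 to 33 nt, a range chosen after the data were seen, they had 11 and 54 reads, a ratio of 0.565 (0.292 to 1.20) that includes equal shares. miR-10a alone, with 10 and 31, had 0.357 (0.170 to 0.816) there. The 28 other miRNAs, summed, had 0.00454 (0.00416 to 0.00495) at 24 nt, 0.0300 (0.0239 to 0.0373) at 25 nt and 0.550 (0.508 to 0.597) at 26 to 33 nt. The intervals of the 5 and of the others overlapped at 24 and at 26 to 33 nt. At 25 nt they did not, and the 5 summed were higher, resting on 7 reads in each library. These were reads of miR-10a and miR-10b, apart from 1 MARWI-IP read of miR-125b. The others differed among themselves at 25 nt: miR-449a had 17 total and 41 MARWI-IP reads, and miR-191-5p 154 and 17. No control immunoprecipitation is among the samples used here, and MARWI-bound RNA and background cannot be told apart.

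Since MARWI-IP lists no read under 24 nt, every read counted there is longer than the mature forms. Of the 72, 54 were 26 nt or more, beside 106948727 of the 110209593 reads of the library, and 8 of their 19 distinct sequences, with 48 of the reads, also occurred in total small RNA. The commonest of miR-10a and miR-10b, and 1 of the 2 single reads of miR-100, show how far such reads ran past the mature 3′ end:
miR-10a-5p, 29 nt: tACCCTGTagatccgaatttgtgtaagga
miR-10b-5p, 30 nt: tACCCTGTagaaccgaatttgtgtggtatc
miR-100-5p, 30 nt: aACCCGTAgatccgaacttgtggtgttaat

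The miR-10a form had 18 MARWI-IP reads and 1 total read, the miR-10b form 3 and 0, and the miR-100 form 1 and 0. The 30-nt miR-125b form printed above led that miRNA with 10 of 17 reads. At 0.653 RPM in MARWI-IP, the 5 miRNAs together were rare in this library.

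**Figure D5:**
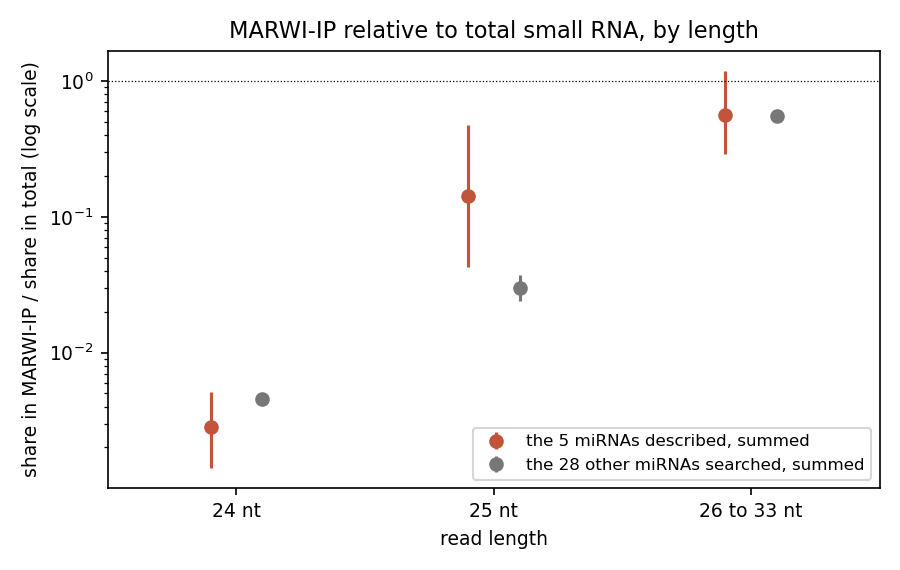
Share of reads in MARWI-IP divided by the share in total small RNA (log scale) at 24, 25 and 26 to 33 nt, with exact 95% counting intervals. The dotted line marks equal shares. The 5 miRNAs, summed, go from 0.00284 at 24 nt to 0.565 at 26 to 33 nt. The 28 other miRNAs, summed, go from 0.00454 to 0.550. At 25 nt the 5 are higher (0.143 against 0.0300), on 7 reads in each library.

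RNA-seq of the testis was read for the genes around, and acting on, these miRNAs. The values are the authors' RPKM (reads scaled to transcript length and library size), summed over the transcripts of a symbol. Of the spermatid genes listed, PRM1 was at 7177, TNP1 at 1678, PRM2 at 1484 and ODF1 at 480 RPKM, and ACR had no entry. Of the meiotic genes listed, SYCP1 was at 49.9 and DMC1 at 4.35 RPKM, and SYCP3 had no entry. The germ cell genes DDX4 and DAZL were at 27.0 and 21.6 RPKM. Of the Leydig cell genes listed, INSL3 was at 404 and STAR at 4.91 RPKM, and CYP17A1 and HSD3B2 had no entry. Of 3 Sertoli cell genes listed, CLU was at 68.0 and AMH at 0.148 RPKM, and SOX9 had no entry. Of genes of other cells, ACTA2 of smooth muscle was at 19.4 RPKM, the red blood cell gene HBB at 38.1 and the macrophage gene CD68 at 0.913. The others listed with them, MYH11, DES, HBA1 and PTPRC, had no entry, and neither had any of the 3 endothelial genes listed. Total small RNA held 628 reads of the red blood cell miRNA miR-451a. Of the smooth muscle miRNAs listed, miR-143-3p had 15969 reads and miR-145-5p 785. The part of these cells in the levels of the 5 miRNAs was not tested.

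Of 6 HOX genes around the miR-10 loci, 3 had an entry and all were under 1 RPKM: HOXB4 at 0.288, HOXD4 at 0.185 and HOXB5 at 0.00979. Over all named genes, 64.0% were at 1 RPKM or more. The host transcripts MIR99AHG and MIR100HG had no entry under those names, which does not show that they were unexpressed. Of 10 listed genes that make or carry miRNAs, 8 had an entry, and all 8 were at 1 RPKM or more. DROSHA and AGO1 had no entry, which again does not show that they were unexpressed. XPO5, which exports precursors from the nucleus, was highest at 12.9, followed by the Drosha partner DGCR8 at 10.7, DICER1 at 9.91 and AGO4 at 8.96. Of 9 enzymes that trim, extend or modify small RNA 3′ ends, 5 had an entry and 4 were at 1 RPKM or more, led by the nucleotidyltransferase TENT4B at 13.8 and the deadenylase PARN at 7.56. TUT1 was at 3.52 and TUT4, a uridylyltransferase of small RNA precursors, at 3.04.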

How the data were processed

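For every small RNA sequence, the deposited tables hold its count of reads, a whole number, with neither normalization nor genome position. The RNA-seq table gives the authors' RPKM per transcript, above 0 only and with no counts, so its depth is unknown. Bowtie, TopHat and Cufflinks are named, per the submitters' processing notes. Trimming, read filters and the build were not given in the sources used here, and no coordinates were used.

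No table of miRNA sequences was at hand. Each miRNA was found by its first base, seed and up to 4 further bases known for the human miRNA, and the commonest first 20 nt among total reads of 21 to 23 nt that met them was taken from the deposited reads. Reads were then matched over 18 nt (20 nt for let-7a and let-7c). The planned split of longer reads by the hairpin sequence could not be made. The search was tested on planted reads.

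Ratios of shares have exact intervals from the binomial of the counts. Ratios called low were under 0.1 in miRNAs with 100 or more total reads of 24 to 33 nt. Names of the RNA-seq table were completed through the Ensembl and RefSeq gene tables. Older symbols were converted for a few genes only. A gene under another older symbol would be given here as having no entry, so a missing entry does not show absence.

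The 5 miRNAs and the lists were chosen with earlier results of these data known. Named were the members, their other arms and cluster partners, neighbours in the order of reads, the 3 closest length profiles among miRNAs with 1000 or more reads, the commonest sequences and the highest genes of each list. Start sites, single sequences and the marker genes named were chosen once their values were known. Alternatives tried were other matching rules, lengths and ways of counting. Scripts used pandas 2.3.3, scipy 1.17.1 and numpy 2.4.6 under Python 3.11.15, and matplotlib 3.10.9 drew the figures.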

Additional observations from a re-analysis of the deposited data

How the results depend on the processing

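Of 30 recomputed values, 19 stayed within the counting interval of the reported one, 11 moved and 0 changed sign. Levels and shares cannot change sign. Matching over 20 nt could move no value, since no member's reads branched before base 23, and allowing 1 mismatch added 1 read. The count of unmoved values is therefore partly fixed by the choice of alternatives. The members' sum of 4943 RPM became 5751 without sequences read once, 59562 over reads of 20 to 23 nt alone and 5193 with reads starting 1 base before or after added, the last an alternative chosen after seeing the data. The log2 ratio of miR-10a to miR-10b, -2.05, was -2.39 over 20 to 23 nt, where the 24-nt form of miR-10a is left out, and -1.73 with the shifted starts added. The ratios of miR-99a to miR-100 and of miR-125b to both stayed within their intervals under all 5 alternatives run for each. The log2 ratio of the members in MARWI-IP to total small RNA, -6.24, was -4.78 without the commonest member sequence of each library, -7.85 over 24 and 25 nt, -0.82 over 26 to 33 nt (chosen after seeing the data) and -0.27 over distinct sequences, with an interval of -1.53 to 1.13. The share of reads off the listed 3′ end, 61.0%, was 56.0% over 21 to 23 nt and 83.3% over distinct sequences. No paired analysis was possible because each dataset is 1 column. At 26 to 33 nt, with 54 MARWI-IP and 11 total reads, a ratio could be formed for miR-10a and miR-125b alone, and the depth does not allow the 5 to be compared.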

Other observations

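The seeds of these miRNAs also occurred in reads outside their families, whose identity was not examined. In MARWI-IP, 6397 reads of 24 to 33 nt had the miR-10 seed at bases 2 to 8, and 53 of them, 0.829% (0.621% to 1.08%), were miR-10. The miR-125 seed occurred in 3915 MARWI-IP reads, of which 4.55% (3.92% to 5.25%) were miR-125a or miR-125b. The miR-99/100 seed was rarer, in 162 MARWI-IP reads, of which 2 were miR-100. In total small RNA of the same lengths, miR-10 made up 51.1% (48.2% to 53.9%) of 1236 reads with its seed, and miR-125 made up 69.2% (66.9% to 71.4%) of 1680. The miR-99/100 family was 1 of 42 such reads, 2.38% (0.0603% to 12.6%), an interval that holds its MARWI-IP share of 1.23%.

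miR-125a-5p, the relative of miR-125b in the miR-99b cluster, was longer than it, with 23 nt its commonest length (36.2%) and 17.9% of its reads at 24 to 33 nt. It had 161 MARWI-IP reads of 1 distinct sequence and a ratio to total small RNA of 0.0161 (0.0136 to 0.0190). let-7a-5p had 58 MARWI-IP reads of this range beside 22 in total small RNA, a ratio of 0.306 (0.184 to 0.525).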
